A study of Mus musculus with 9 samples.

Results

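The RNA levels of 10 genes with which Mueller cells keep the retina in balance were followed in mouse retinas after laser-induced retinal vein occlusion (RVO). The genes were chosen by name and not by a rule on measured values, although earlier results of these data were known: Glul, Rlbp1, Slc1a3, Kcnj10, Aqp4, Abca8a, Dkk3, Apoe, Clu and Aldoc. All 10 were found among the 48679 names that the count table lists, and all 10 passed the filter on low counts in every comparison. RNA was sequenced from 9 pools, each holding 6 retinas from 6 mice, with 3 pools per group. All mice were C57BL/6J and 12 weeks old. Each lasered mouse gave 1 eye to the RVO group and its fellow eye to the control group, and received eosin Y as a photosensitizer by intraperitoneal injection and anaesthesia with ketamine and xylazine. In RVO eyes all large veins were closed with the laser, in control eyes the same laser scheme was set between the large vessels, and both were taken at d2. Untreated eyes came from other mice and received no laser. The comparison of RVO with control eyes therefore addresses the closure of the veins on top of the laser. It also spans the site of the laser, on veins or between them, which cannot be told apart from closure. The paper reports that part of the closed veins re-opened over the following days, so RVO pools may hold both states. The comparison of control with untreated eyes addresses the laser without closure in the same eye. It also spans different mice, the time after treatment and a fellow eye with closed veins, and may span eosin Y and anaesthesia. These cannot be told apart from the laser.

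Mueller cells span the neural retina from the inner limiting membrane to the photoreceptors and are its main macroglia. They take up glutamate released by neurons and convert it to glutamine, carry potassium ions and water from the neural tissue to the vessels and the vitreous, take part in the recycling of visual pigment of cones, and supply neurons with lipids and metabolites. They are known to become reactive in many retinal injuries, which is commonly read from the intermediate filament proteins encoded by Gfap and Vim. None of the 10 genes is private to Mueller cells: astrocytes also use Glul, Slc1a3, Aqp4, Apoe and Aldoc, the pigment epithelium also uses Rlbp1, and Dkk3 and Clu are also known from neurons.

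The unit CPM (counts per 1e6 counts in a pool) was used for levels, after libraries were scaled by edgeR's TMM factors. Total counts were 21022997 to 28993921 per RVO pool, 18897218 to 23419497 per control pool and 12377572 to 15245869 per untreated pool, so that low values were least precise in untreated eyes. Differences were tested with edgeR's quasi-likelihood test over all genes, and a gene was called differentially expressed at a Benjamini-Hochberg adjusted p under 0.01, with n = 3 pools per group. These p-values measure the spread between pools. In whole retinas, fewer Mueller cells and less RNA per Mueller cell cannot be told apart. Further genes that mark Mueller cells were present in the pools, since 24 of 24 on a list without the 10 genes were measured in every comparison and summed to 2709 to 2805 CPM in untreated eyes. RVO replicate 2 stood apart from the other RVO pools in several of the results below. Its markers of lens fibres summed to 6974 CPM, against 209 and 614 CPM in RVO replicates 1 and 3, 249 to 3464 CPM in control and 5.50 to 31.4 CPM in untreated pools. Calls of the 10 genes, and the list counts that changed most, are given with and without this pool. It was the highest RVO pool for 9 of the 10 genes, so leaving it out necessarily lowers their RVO means.

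The sequence before the start site is shown for 4 of the genes: Abca8a, which had the lowest level in RVO eyes relative to untreated eyes, Slc1a3 and Kcnj10, which had no call between RVO and untreated eyes, and Glul, which was lower in both lasered groups. Each sequence holds the 250 bases upstream of the start site in RefSeq (build GRCm38.p6), 5′ to 3′ on the strand of the gene. Abca8a is at chr11:110095938-110096187 on the minus strand, Slc1a3 at chr15:8710808-8711057 on the minus strand, Glul at chr1:153899679-153899928 on the plus strand and Kcnj10 at chr1:172340960-172341209 on the plus strand. Capitals mark the letters of 4 motifs searched on both strands: the HIF core ACGTG, the STAT site TTCNNNGAA, the AP-1 site TGANTCA and the SOX core ACAAT.
Abca8a: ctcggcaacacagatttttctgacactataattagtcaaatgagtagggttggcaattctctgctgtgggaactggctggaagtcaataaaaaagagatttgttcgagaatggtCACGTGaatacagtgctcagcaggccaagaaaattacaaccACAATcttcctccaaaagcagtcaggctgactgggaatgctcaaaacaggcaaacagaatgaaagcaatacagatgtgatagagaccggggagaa
Slc1a3: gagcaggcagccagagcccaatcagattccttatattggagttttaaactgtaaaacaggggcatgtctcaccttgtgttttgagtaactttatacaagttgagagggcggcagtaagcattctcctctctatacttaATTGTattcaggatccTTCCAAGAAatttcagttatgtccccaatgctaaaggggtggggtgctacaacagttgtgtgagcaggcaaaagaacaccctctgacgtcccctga
Glul: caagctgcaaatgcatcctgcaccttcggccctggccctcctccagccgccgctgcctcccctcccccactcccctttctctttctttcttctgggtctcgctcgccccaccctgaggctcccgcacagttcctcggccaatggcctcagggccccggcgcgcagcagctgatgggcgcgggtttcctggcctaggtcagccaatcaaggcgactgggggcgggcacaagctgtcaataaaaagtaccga
Kcnj10: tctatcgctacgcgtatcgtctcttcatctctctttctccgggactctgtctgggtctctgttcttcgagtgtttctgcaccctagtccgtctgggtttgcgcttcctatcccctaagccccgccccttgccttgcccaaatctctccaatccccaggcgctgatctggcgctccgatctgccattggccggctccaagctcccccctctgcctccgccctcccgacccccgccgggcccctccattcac
The capitals CACGTG in Abca8a hold the HIF core on each strand and are also an E-box (CANNTG), a motif that was searched as well and is otherwise not in capitals. The second stretch in capitals in Abca8a is the SOX core. In Slc1a3 the capitals are the SOX core read on the other strand and 1 STAT site. The sequences of Glul and Kcnj10 hold none of the 4 motifs, and E-box letters occur 2 times in the former and 0 times in the latter. Among 7 of the genes with a listed sequence, these were the only HIF core and STAT letters, the SOX core was also in Apoe and Aldoc, and the AP-1 site was in none. Of all 32851 listed upstream sequences of this length, 16.6% hold the HIF core, 7.0% the STAT site, 6.7% the AP-1 site, 27.7% the SOX core and 66.2% an E-box. These matches describe letters only and are not measured binding sites.

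In untreated eyes the levels of the 10 genes were ordered per length, on a scale named TPM (counts per exon base, scaled to the same total in each pool, computed here). Glul led with a mean of 2543 TPM (SD 52.8, n = 3), and Kcnj10 was lowest with 68.4 TPM (SD 3.24). Between them, in falling order, came Apoe, Dkk3, Clu, Rlbp1, Aldoc, Abca8a, Slc1a3 and Aqp4. Only the ranges of the neighbours Apoe (768 to 860 TPM) and Dkk3 (744 to 813 TPM) overlapped. In control eyes Clu and Glul shared the lead with overlapping ranges, at means of 1576 and 1533 TPM. In RVO eyes Clu led alone at 1269 TPM, followed by Apoe and Glul with overlapping ranges, and Abca8a was last at 33.0 TPM. The ranges of Slc1a3, Kcnj10, Aqp4 and Abca8a overlapped from neighbour to neighbour in RVO eyes, so their order there was not resolved.

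Control and RVO eyes were each compared with the same untreated pools. In RVO eyes, 5 of the 10 genes were called, with Clu higher and Glul, Rlbp1, Aqp4 and Abca8a lower. Over all 16380 genes tested 52.1% were called, 27.4% higher and 24.6% lower. In control eyes 7 of the 10 genes were called, with Kcnj10, Clu and Aldoc higher and Glul, Rlbp1, Aqp4 and Abca8a lower, against 52.4% of 16066 genes, 27.2% higher and 25.2% lower. The shares of called genes among the 10 were thus near or moderately above those of all genes, and the direction differed from gene to gene. Groups did not overlap for 8 of the 10 genes in the RVO comparison (73.4% of all genes) and for 9 in the control comparison (70.0% of all genes). The median log2 fold change of the 10 genes was -0.50 in RVO eyes and -0.06 in control eyes, where the median of all genes was 0.01 in each. The count of 5 in RVO eyes depended on single pools. It was 10 without RVO replicate 2, with 9 genes lower, where 64.4% of all genes were called. It was 1 without RVO replicate 3 (39.2% of all genes) and 2 without any 1 of the untreated pools (35.1% to 39.2% of all genes), and Glul was called in every one of these fits. The count of 7 in control eyes stayed between 6 and 7 when 1 pool was left out (41.6% to 48.7% of all genes). It was 3 when all 9 pools were fitted together (37.4% of all genes).

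**Figure D1:**
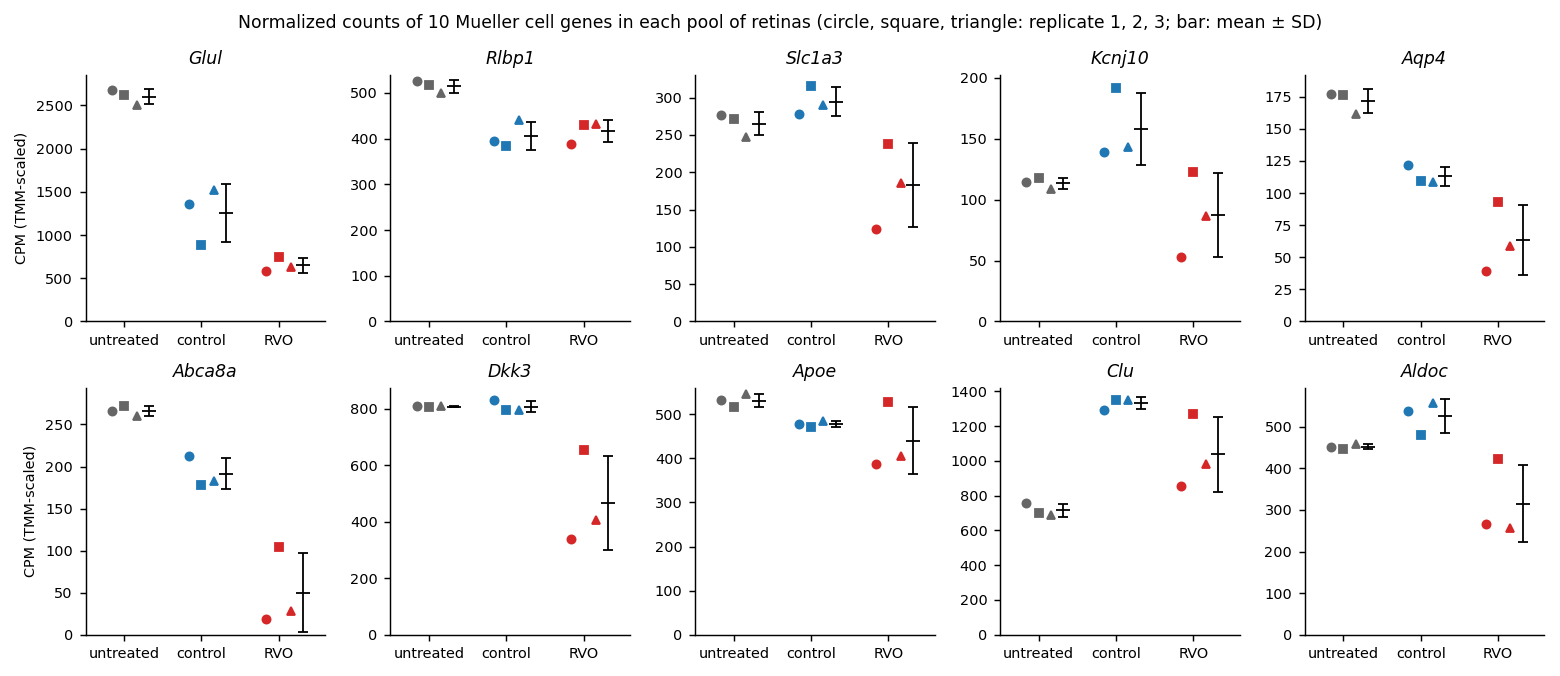
Normalized counts (CPM, linear axis from 0) of the 10 genes in each of the 9 pools, with untreated eyes in grey, control eyes in blue and RVO eyes in red. Symbols stand for replicates 1, 2 and 3 and bars for the mean ± SD; Glul steps down from untreated over control to RVO pools, whereas Clu is lowest in the untreated pools.

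Between RVO and control eyes, 0 of the 10 genes were called at the adjusted p of 0.01. Over all 16874 genes 3.34% were called, 2.70% higher and 0.634% lower. At an unadjusted p under 0.05 there were 8 of the 10, all but Rlbp1 and Apoe, each lower in RVO eyes, where 47.1% of all genes passed. With the threshold set at 0.05, 7 of them passed, all lower, where 34.6% of all genes passed, 17.5% higher and 17.1% lower. DESeq2's Wald test called 6 at 0.01, all lower, and 21.3% of all genes. The groups did not overlap for 8 genes, against 52.5% of all genes. The median log2 fold change of the 10 genes was -0.76, against 0.02 over all genes. Without RVO replicate 2, 9 of the 10 genes and 36.4% of all genes were called in this comparison, the 9 genes all lower. Without any other single pool 0 of the 10 were called, and 0% to 0.169% of all genes.

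**Figure D2:**
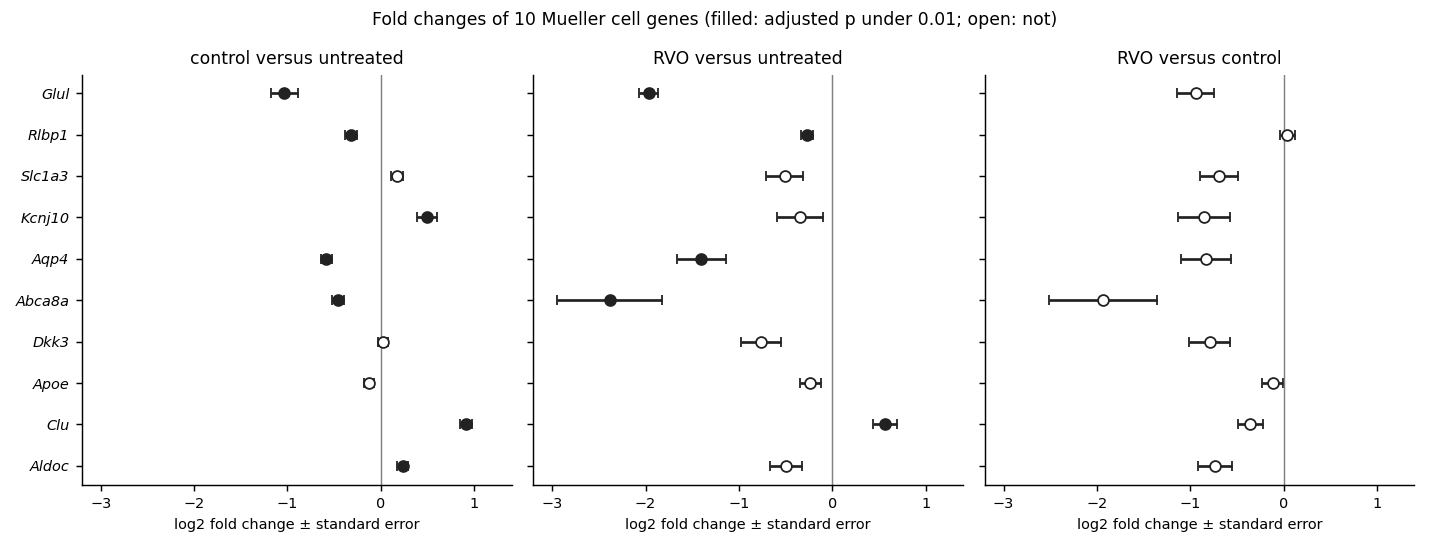
Log2 fold changes (points) with standard errors (bars) of the 10 genes in 3 comparisons, from edgeR fits of 3 pools per group. Filled points passed an adjusted p of 0.01; no point is filled for RVO versus control, where 9 of 10 points lie left of 0.

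Glul encodes glutamine synthetase, the enzyme that joins glutamate and ammonia to glutamine (GRCm38 chromosome 1, 153899944 to 153909723, plus strand). It had 2677, 2615 and 2505 CPM in the untreated pools, 1363, 880 and 1519 CPM in the control pools and 580.0, 748 and 626 CPM in the RVO pools. The 3 groups did not overlap, and control replicate 2 was the control pool nearest to the RVO pools. Glul fell by 1.96 on the log2 scale in RVO eyes, 3.90-fold (SE 0.10, edgeR's adjusted p = 5e-06), and fell by 1.03 in control eyes, 2.05-fold (SE 0.14, adjusted p = 4e-05). Against control eyes, RVO eyes had a log2 fold change of -0.94 (SE 0.20, adjusted p = 0.0146), and -1.07 without RVO replicate 2 (adjusted p = 0.00171). Glul shares 116 exon bases with Teddm2 on the opposite strand and 93 with Mir8114 on its own strand, and it is the only one of the 10 genes with such an overlap.

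Slc1a3 encodes GLAST, the main glutamate transporter of Mueller cells (chromosome 15, 8634124 to 8710764, minus strand). The untreated pools had 277, 271 and 248 CPM, the control pools 278, 316 and 291 CPM and the RVO pools 124, 237 and 186 CPM. All RVO pools were below all others, although RVO replicate 2 was close to the untreated pools. The log2 fold change was -0.51 in RVO eyes (SE 0.20, edgeR's adjusted p = 0.0486) and 0.17 in control eyes (SE 0.07, adjusted p = 0.0366), neither of which was called. Without RVO replicate 1 the former was -0.28 and was not called (adjusted p = 0.0509). Without RVO replicate 2 it was -0.73 and was called (adjusted p = 0.000139). RVO against control eyes gave -0.69 (SE 0.20, adjusted p = 0.0364), and -0.94 without RVO replicate 2 (adjusted p = 0.000663). With each pool's trend with GC content and exon length removed, Slc1a3 was at -0.21 in RVO (adjusted p = 0.364) and 0.42 in control eyes (adjusted p = 0.000145), the latter called. The step that makes glutamine was lower in RNA in both lasered groups. The CPM of the transporter was below the untreated range only in RVO pools, without a call, and that fall was smaller with the trends removed.

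Among 18 other genes of glutamate, glutamine and neutral amino acid handling, 6 were called higher and 6 lower in RVO eyes, and 6 higher and 3 lower in control eyes. Only 1 was called between RVO and control eyes, and it was higher, whereas 4 were higher and 6 lower without RVO replicate 2. The largest fall was that of Slc6a11, a GABA transporter, whose log2 fold change was -1.22 in RVO eyes (SE 0.26, edgeR's adjusted p = 0.00379) and 0.08 in control eyes (adjusted p = 0.189). Slc38a1, a glutamine transporter, had log2 fold changes of -1.09 in RVO (SE 0.16, adjusted p = 0.000568) and -0.29 in control eyes (SE 0.05, adjusted p = 0.000222). The largest rise was that of Slc7a11, the cystine and glutamate exchanger, which had 7.0 to 8.90 CPM in untreated, 9.41 to 17.7 CPM in control and 46.0 to 56.0 CPM in RVO pools. It was higher in RVO than in control eyes by 1.89 on the log2 scale (SE 0.21, adjusted p = 0.00672), the 1 call of the list in that comparison. The neutral amino acid transporter Slc1a5 rose by 1.30 in RVO eyes (SE 0.21, adjusted p = 0.000776) and by 0.77 in control eyes (SE 0.13, adjusted p = 0.00015).

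Kcnj10 encodes Kir4.1, the inwardly rectifying potassium channel of Mueller cells (chromosome 1, 172341210 to 172374085, plus strand). It had 114, 118 and 109 CPM in the untreated pools, 139, 192 and 143 CPM in the control pools and 53.3, 122 and 86.8 CPM in the RVO pools. RVO replicate 2 was above all untreated pools, while the other RVO pools were below them. Kcnj10 rose in control eyes by 0.49 on the log2 scale, 1.41-fold (SE 0.10, edgeR's adjusted p = 0.00109). This rise was 0.33 without control replicate 2 (adjusted p = 0.000384). With all 9 pools fitted together it was 0.47 and was not called (adjusted p = 0.117). In RVO eyes the log2 fold change was -0.35 (SE 0.25, adjusted p = 0.241), and -0.08 without RVO replicate 1 (adjusted p = 0.636), neither of which was called. It was -0.66 without RVO replicate 2 (adjusted p = 0.00102). Relative to control eyes, RVO eyes were at -0.85 (SE 0.28, adjusted p = 0.0487), and -1.19 without that pool (adjusted p = 0.0011).

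Aqp4 encodes the water channel of the Mueller cell endfeet (chromosome 18, 15389496 to 15410982, minus strand). The untreated pools had 177, 177 and 161 CPM, the control pools 122, 109 and 109 CPM and the RVO pools 39.4, 93.2 and 58.8 CPM, without overlap between groups. Aqp4 fell by 1.4 on the log2 scale in RVO eyes, 2.64-fold (SE 0.26, edgeR's adjusted p = 0.0018), and fell by 0.58 in control eyes, 1.5-fold (SE 0.06, adjusted p = 3.76e-06). In RVO eyes it was -1.76 without RVO replicate 2 (SE 0.13, adjusted p = 3.1e-08), and was not called without RVO replicate 3 (adjusted p = 0.0104). RVO eyes differed from control eyes by -0.83 (SE 0.27, adjusted p = 0.0481), and -1.23 without RVO replicate 2 (adjusted p = 0.000127). With each pool's trend with GC content and exon length removed, the changes against untreated eyes were -0.92 in RVO (adjusted p = 0.0118) and -0.15 in control eyes (adjusted p = 0.017), and neither was called. With all 9 pools fitted together the change in control eyes was -0.60 and was not called either (adjusted p = 0.0483).

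The potassium and the water channel thus had different patterns in control eyes, which was also seen in the ratio of their counts. This value does not depend on how libraries are scaled, but trends with GC content and exon length were not removed from it. With these removed, log2 fold changes against untreated eyes were -0.37 in RVO and 0.50 in control eyes for Kcnj10. For Aqp4 they were -0.92 and -0.15, so the genes then lay closer together than in the ratio. The ratio of Aqp4 to Kcnj10 counts was 1.51 ± 0.0346 in untreated (SD, n = 3), 0.735 ± 0.154 in control and 0.726 ± 0.0436 in RVO pools. Both lasered groups were below every untreated pool, and they differed from each other by 0.00 on the log2 scale with a pooled SD of 0.23 (exact two-sided permutation test, p = 0.9). The ratio of Glul to Slc1a3 was 9.81 ± 0.264 in untreated, 4.31 ± 1.33 in control and 3.73 ± 0.816 in RVO pools, with p = 0.8 between RVO and control pools in the same exact test. Each lasered group against untreated pools gave the exact p = 0.1 for both ratios, the smallest that 3 against 3 pools allow, and 0.133 after adjustment over the 12 ratio tests. A p of this size does not show that the ratios were the same in RVO and control eyes, as control pools ranged from 0.570 to 0.874 for Aqp4 to Kcnj10 and from 2.79 to 5.23 for Glul to Slc1a3.

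**Figure D3:**
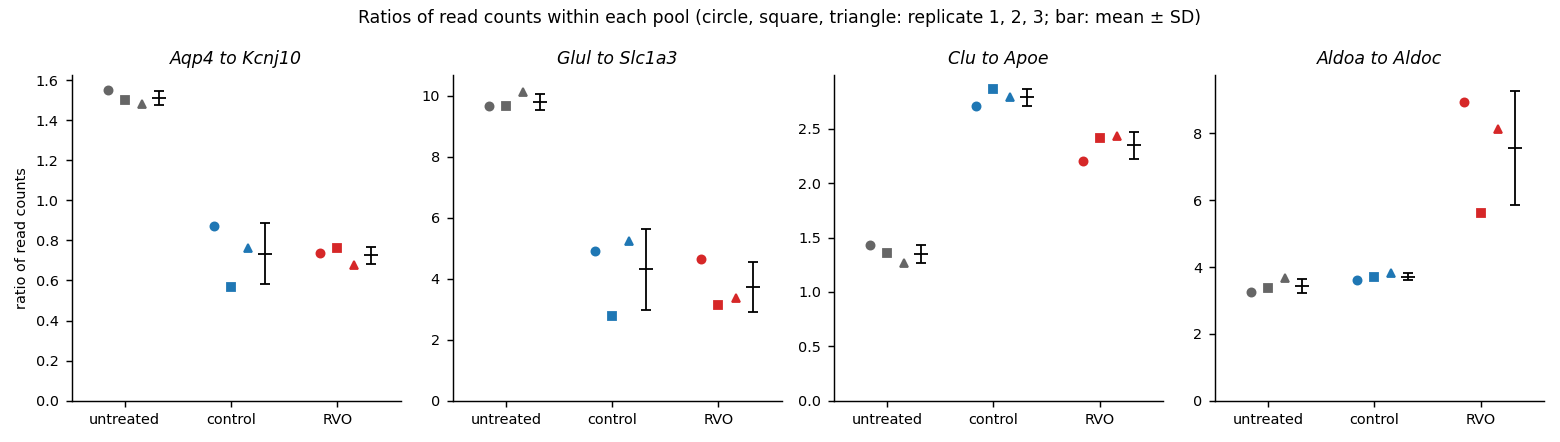
Ratios of read counts of 2 genes within each pool (linear axes from 0), with symbols for replicates 1, 2 and 3 and bars for the mean ± SD. The ratios of Aqp4 to Kcnj10 and of Glul to Slc1a3 are lower in both lasered groups than in untreated pools, Clu to Apoe is higher in both, and Aldoa to Aldoc is higher in RVO pools than in either other group.

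Of 20 further genes of potassium and water handling 19 were tested, of which 3 were called higher and 6 lower in RVO eyes, and 4 higher and 5 lower in control eyes. The largest falls were those of 2 potassium channels. The large-conductance calcium-activated channel Kcnma1 had 64.1 to 78.5 CPM in untreated, 36.6 to 48.0 CPM in control and 8.76 to 26.9 CPM in RVO pools, and its log2 fold changes were -2.14 in RVO (SE 0.36, edgeR's adjusted p = 0.00112) and -0.70 in control eyes (SE 0.10, adjusted p = 3.95e-05). Kcnj2, which encodes the inward rectifier Kir2.1, changed by -1.88 in RVO (SE 0.32, adjusted p = 0.0011) and by -0.69 in control eyes (SE 0.10, adjusted p = 4.07e-05). Higher in RVO eyes was Lrrc8a, a subunit of volume-regulated anion channels, by 0.81 (SE 0.13, adjusted p = 0.000723). Of this list, 1 gene was called higher and 0 lower between RVO and control eyes. With RVO replicate 2 left out, 4 of the 19 genes were higher and 10 lower against untreated eyes, 2 were higher and 7 lower against control eyes, and Kcnma1 was at -2.76 against untreated eyes.

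Rlbp1 encodes CRALBP, the 11-cis-retinal binding protein of Mueller cells and the pigment epithelium (chromosome 7, 79374870 to 79387048, minus strand). The untreated pools had 526, 518 and 499 CPM, the control pools 394, 384 and 442 CPM and the RVO pools 389, 431 and 432 CPM. Both lasered groups were below all untreated pools and overlapped each other. Rlbp1 fell by 0.27 on the log2 scale in RVO eyes (SE 0.07, edgeR's adjusted p = 0.0078) and fell by 0.32 in control eyes (SE 0.06, adjusted p = 0.000624). The call in RVO eyes was lost in 8 of 15 alternatives. These were the fit without RVO replicate 1, RVO replicate 3 or any 1 untreated pool (adjusted p = 0.0152 to 0.0333), the fit with a replicate block (0.0225), the fit without a filter on low counts (0.0351) and scaling by library size. When libraries were scaled by their size only, these changes were -0.06 (adjusted p = 0.469) and -0.15 (adjusted p = 0.0465). That scaling raised the median of all genes to 0.22 and 0.19, and relative to this median they were -0.28 and -0.33. Rlbp1 was the only member whose highest RVO pool was not replicate 2, and RVO eyes differed from control eyes by 0.04 on the log2 scale (SE 0.08, adjusted p = 0.712).

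Among 13 other genes of retinoid handling, 5 were called higher and 2 lower in RVO eyes, and 4 higher and 2 lower in control eyes. In the comparison of RVO with control eyes edgeR called 0, and 2 were higher and 1 lower at an adjusted p under 0.05, as at 0.01 without RVO replicate 2. The retinaldehyde dehydrogenase Aldh1a3 had 0.857 to 1.02 CPM in untreated pools, 3.35 to 18.2 CPM in control pools and 14.9 to 29.5 CPM in RVO pools. Lower in RVO eyes were the photoreceptor retinol dehydrogenases Rdh12 (log2 fold change -0.98, SE 0.07, edgeR's adjusted p = 2.01e-05), and Rdh11 (log2 fold change -0.33, SE 0.08, adjusted p = 0.00512). Markers of the pigment epithelium, the other main site of Rlbp1, summed to 868 to 939 CPM in untreated, 721 to 795 CPM in control and 631 to 1009 CPM in RVO pools. Of these 12 markers 1 was called higher and 2 lower in RVO eyes, and 1 higher and 4 lower in control eyes. Without RVO replicate 2 the numbers in RVO eyes were 2 and 4, and their part in the result for Rlbp1 was not tested.

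Abca8a, which encodes a transporter of the ABCA lipid transporter family (chromosome 11, 110025634 to 110095978, minus strand), had the largest fold change of the 10 genes. It had 266, 272 and 260.3 CPM in the untreated pools, 212, 179 and 183 CPM in the control pools and 18.4, 104 and 28.0 CPM in the RVO pools. RVO replicates 1 and 3 were at 6.91% and 10.5% of the untreated mean and replicate 2 at 39.2%, while control pools were at 67.1% to 79.8%. Abca8a fell by 2.38 on the log2 scale in RVO eyes, 5.21-fold (SE 0.56, edgeR's adjusted p = 0.00577), and fell by 0.46 in control eyes (SE 0.07, adjusted p = 5.05e-05). In RVO eyes it was -3.49 without RVO replicate 2 (SE 0.13, adjusted p = 8.03e-11). It was not called without RVO replicate 3 or any 1 untreated pool (adjusted p = 0.0192 to 0.0242). The log2 fold change of RVO against control eyes was -1.93 (SE 0.58, adjusted p = 0.0378), and -3.07 without RVO replicate 2 (SE 0.16, adjusted p = 3.42e-06). With GC content and length trends removed, the change in control eyes was -0.13 (adjusted p = 0.0742) and that in RVO eyes -2.03 (adjusted p = 0.0129). It has close paralogs, and how reads that match several genes were counted is not given in the sources used here.

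Those paralogs were on a list of 16 genes of lipid and lipoprotein handling, of which 4 were called higher and 7 lower in RVO eyes, 3 higher and 7 lower in control eyes and 1 higher between RVO and control eyes. Leaving out RVO replicate 2, 5 were higher and 11 lower against untreated eyes, and 2 were higher and 8 lower against control eyes. Abca6 had 11.6 to 13.6 CPM in untreated, 8.34 to 10.3 CPM in control and 1.05 to 4.93 CPM in RVO pools, with log2 fold changes of -2.34 in RVO (SE 0.48, edgeR's adjusted p = 0.00283) and -0.45 in control eyes (SE 0.11, adjusted p = 0.00397). The former was -3.24 without RVO replicate 2. Abca8b was at 44.6 to 48.9 CPM in untreated and 42.7 to 45.5 CPM in control pools, and at 13.7 to 28.7 CPM in RVO pools. The log2 fold change of Abca8b was -1.19 in RVO (SE 0.24, adjusted p = 0.00249) and -0.06 in control eyes (adjusted p = 0.429). The lipid droplet protein gene Plin2 changed most in the other direction, from 6.25 to 9.43 CPM in untreated pools to 20.3 to 29.9 CPM in control and 59.4 to 86.0 CPM in RVO pools. It was the 1 gene of the list called between RVO and control eyes, by 1.63 on the log2 scale (SE 0.19, adjusted p = 0.00679). Nr1h2, a liver X receptor, rose by 1.00 in RVO eyes (SE 0.08, adjusted p = 3.69e-05) and by 0.73 in control eyes (SE 0.07, adjusted p = 2.71e-06).

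Apoe and Clu encode apolipoproteins that glia secrete. Apoe (chromosome 7, 19696109 to 19699188, minus strand) had 531, 516 and 545 CPM in the untreated pools, 479, 471 and 485 CPM in the control pools and 388, 528 and 405 CPM in the RVO pools. RVO replicate 2 lay among the untreated pools, and the other RVO pools were below all control pools. No log2 fold change of Apoe was called, with -0.24 in RVO eyes (SE 0.11, edgeR's adjusted p = 0.0921), -0.13 in control eyes (SE 0.05, adjusted p = 0.046) and -0.12 between RVO and control eyes (SE 0.11, adjusted p = 0.452). Without RVO replicate 1 the first was -0.14 and was not called (adjusted p = 0.28). Without RVO replicate 2 it was -0.37 and was called (adjusted p = 0.000135). Apoe was then also called lower in RVO than in control eyes (adjusted p = 0.00466). With GC content and length trends removed, its log2 fold change against untreated eyes was -0.86 in RVO (adjusted p = 0.000514) and -0.73 in control eyes (adjusted p = 8.94e-07), both called.

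Clu, which encodes clusterin (chromosome 14, 65968483 to 65981547, plus strand), was the only member higher in both lasered groups. It had 758, 702 and 689 CPM in the untreated pools, 1294, 1350.25 and 1353 CPM in the control pools and 856, 1273 and 984 CPM in the RVO pools. The RVO pools lay between the untreated and the control pools without overlap. Clu rose in control eyes by 0.91 on the log2 scale, 1.88-fold (SE 0.06, edgeR's adjusted p = 1.76e-07), and in RVO eyes by 0.56, 1.48-fold (SE 0.13, adjusted p = 0.00586). The latter was 0.41 without RVO replicate 2 (adjusted p = 0.000219), and was not called without RVO replicate 3 or any 1 untreated pool (adjusted p = 0.0132 to 0.0296). Compared with control eyes, the value in RVO eyes was -0.36 (SE 0.13, adjusted p = 0.0734), and -0.55 without RVO replicate 2 (adjusted p = 0.00062). With GC content and length trends removed, the change in RVO eyes was 0.12 and was not called (adjusted p = 0.522). The ratio of Clu to Apoe counts was 1.35 ± 0.0821 in untreated (SD, n = 3), 2.79 ± 0.0823 in control and 2.35 ± 0.125 in RVO pools. No group overlapped another in this ratio (exact two-sided permutation p = 0.1 for each pair of groups, the smallest possible, 0.133 adjusted).

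Dkk3 encodes a secreted protein of the Dickkopf family and marks Mueller cells in the mouse retina (chromosome 7, 112116017 to 112159057, minus strand). It was the steadiest of the 10 genes in untreated pools, with 808, 806 and 809.5 CPM, and was similar in control pools, with 832, 796 and 797 CPM. The RVO pools had 338, 656 and 405 CPM, all below the others. Its log2 fold change in control eyes was 0.02 (SE 0.05, edgeR's adjusted p = 0.772). In RVO eyes it was -0.76 (SE 0.21, adjusted p = 0.0121), and -0.56 without RVO replicate 1 (adjusted p = 0.0172), neither of which was called. It was called without RVO replicate 2, at -1.07 (SE 0.08, adjusted p = 3.44e-08). Set against control eyes, RVO eyes had -0.79 (SE 0.22, adjusted p = 0.0292), and -1.14 without that pool (adjusted p = 1.33e-05).

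Aldoc encodes aldolase C, the glycolytic aldolase of brain and retina (chromosome 11, 78322968 to 78327781, plus strand). The untreated pools had 451, 447 and 459 CPM, the control pools 539, 479 and 557 CPM and the RVO pools 265, 422 and 257 CPM. Control pools were above and RVO pools below all untreated pools. Aldoc rose in control eyes by 0.23 on the log2 scale (SE 0.06, edgeR's adjusted p = 0.0053), a change that was 0.08 with GC content and length trends removed (adjusted p = 0.231). It was not called when any 1 pool other than control replicate 2 was left out (adjusted p = 0.0175 to 0.0433). The RVO eyes had a log2 fold change of -0.49 (SE 0.17, adjusted p = 0.0334), and -0.37 without RVO replicate 1 (adjusted p = 0.0873), neither of which was called. It was -0.74 without RVO replicate 2 (adjusted p = 1.42e-07). Against the control eyes it was -0.74 (SE 0.18, adjusted p = 0.0224), and -1.02 without that pool (adjusted p = 1.42e-05).

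Its paralog Aldoa, the widely used aldolase A, had 1467 to 1688 CPM in untreated, 1772 to 2130 CPM in control and 2089 to 2376 CPM in RVO pools. This direction differs from the paper's quantitative PCR on the same RNA samples, in which Aldoa is named among genes with lower expression. The cause of the difference was not tested. The ratio of Aldoa to Aldoc counts was 3.44 ± 0.219 in untreated (SD, n = 3), 3.71 ± 0.108 in control and 7.56 ± 1.72 in RVO pools. Every RVO pool was above every other pool in this ratio (exact two-sided permutation p = 0.1 against either group, the smallest possible), and control and untreated pools overlapped (p = 0.2). Of 10 tested aldolase and glycogen enzymes 5 were called higher and 0 lower in RVO eyes, 4 higher and 1 lower in control eyes, and 2 higher between RVO and control eyes, or 4 higher and 2 lower without RVO replicate 2. The 2 were Gys1, glycogen synthase, with 1.09 (SE 0.12, edgeR's adjusted p = 0.00668), and Pgm1, phosphoglucomutase, with 0.77 on the log2 scale (SE 0.12, adjusted p = 0.00989).

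The 10 genes varied more between RVO pools than between other pools. The coefficient of variation had a median of 30.2% in RVO, 7.07% in control and 3.06% in untreated pools, and it was higher in RVO than in untreated pools for all 10 genes and higher than in control pools for 8. RVO replicate 2 was the highest RVO pool for 9 of 10 genes, all but Rlbp1, and was the RVO pool nearest to the control mean for 9. This pool also had more counts of bipolar, amacrine and ganglion cell markers, which summed to 1011 CPM in it and to 440.2 and 556 CPM in RVO replicates 1 and 3, against 1471 to 1576 CPM in control and 1886 to 2055 CPM in untreated pools. Rod markers summed to 55485 CPM in this pool and to 51150 and 52859 CPM in the other RVO pools. Gliosis genes summed to 4660 CPM in it and to 5143 and 5319 CPM in the others. The part of these differences between pools, and of lens RNA, in the values of the 10 genes was not tested.

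**Figure D4:**
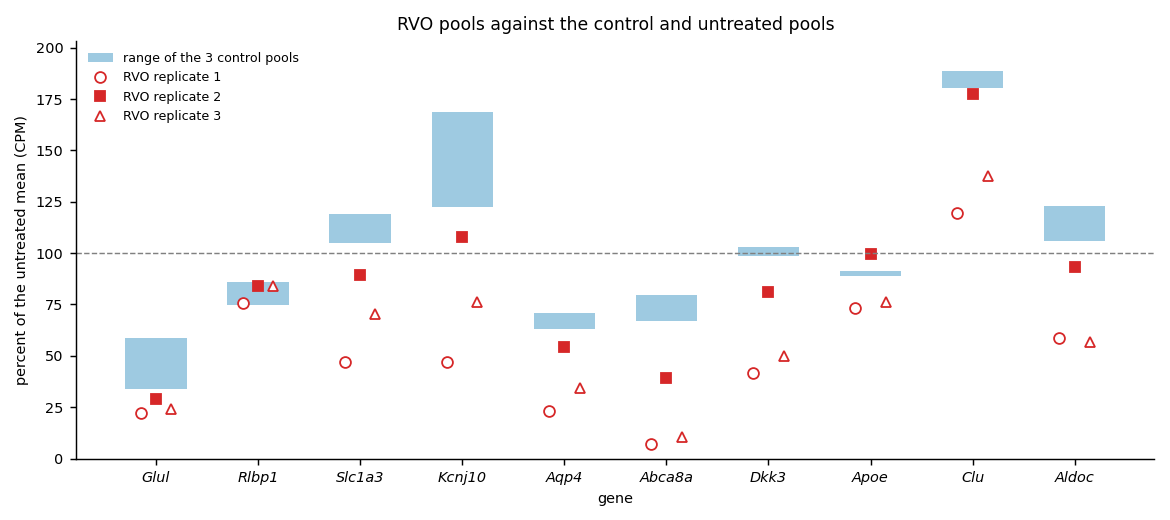
CPM of the 10 genes in each RVO pool as percent of the mean of the 3 untreated pools (dashed line at 100), with the range of the 3 control pools as blue bars. The filled square is RVO replicate 2, which is nearer to the control mean than the open symbols for 9 of 10 genes; Abca8a was at 6.91% and 10.5% in the other RVO pools.

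Genes with the pattern most like 2 of the members were sought over the 9 pools by Pearson's r of log2 CPM among 10530 genes with a mean of at least 10 CPM. The pools share group and library, so r describes the pattern and carries no test. Glul was most like Rabgef1 (r = 0.998), Gm11961, Gnb1, Fhod3 and Fam3c (r = 0.995 to 0.994). Gnb1, which encodes the beta subunit of the rod transducin, had 7376 to 7813 CPM in untreated, 4242 to 5273 CPM in control and 3151 to 3779 CPM in RVO pools. Kcnj10 was most like Bend4, Pxylp1, Syt11, Paqr8 and Rassf4, with r between 0.965 and 0.975. Syt11 had 218 to 227 CPM in untreated, 266 to 286 CPM in control and 136 to 223 CPM in RVO pools. These genes were picked by r over the same pools, so a like order of the pools follows from the choice.

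Other markers of Mueller cells did not fall as a group. Of 24, 11 were called higher and 7 lower in RVO eyes, and 13 higher and 5 lower in control eyes, and their summed level was 2758 to 3409 CPM in RVO and 3163 to 3466 CPM in control pools. Lower in RVO eyes was the carbonic anhydrase Car2 (log2 fold change -1.16, SE 0.11, edgeR's adjusted p = 6.65e-05). Higher were Crym, a thyroid hormone binding protein, by 3.38 (SE 0.20, adjusted p = 9.21e-06), and the urea transporter Slc14a1 by 2.97 (SE 0.32, adjusted p = 0.000128). Crym was at 29.2 to 34.1 CPM in untreated pools and at 228 to 402 CPM in RVO and 255 to 428 CPM in control pools. Of the 24, 1 was called in RVO against control eyes, and it was higher, whereas 5 were higher and 8 lower without RVO replicate 2.

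All 15 genes of reactive gliosis were called higher in RVO and in control eyes, where 27.4% and 27.2% of all genes were. Against control eyes 6 of 15 were called higher in RVO eyes (2.70% of all genes). Without RVO replicate 2 it was 12 of 15, with 2942 of 17199 genes in all. The list was made with earlier results of these data known, and the paper names Lcn2 and Edn2 among its most raised genes. These counts are therefore not a test. The 15 genes summed to 341 to 359 CPM in untreated, 2158 to 2861 CPM in control and 4660 to 5319 CPM in RVO pools. The largest rises were those of Lcn2, lipocalin 2, by 6.83 in RVO (SE 0.34, edgeR's adjusted p = 4.63e-06) and 4.78 in control eyes (SE 0.26, adjusted p = 4.45e-08), and of Edn2, endothelin 2, by 6.17 in RVO (SE 0.18, adjusted p = 9.61e-07) and 5.42 in control eyes (SE 0.20, adjusted p = 5.75e-09). Control replicate 2, with the lowest Glul and the highest Kcnj10 of the control pools, had the highest gliosis sum of the control pools, at 2861 CPM. It also had their lowest sum of rod markers, at 61936 CPM. RVO pools had higher gliosis sums than control pools, but lower Kcnj10. Whether these values go together was not tested.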

How the data were processed

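The authors pooled retinas, sequenced reads of 50 bases, mapped them with STAR 2.5.2b to the mouse genome (GRCm38) with Gencode vM11, ran featureCounts (Subread 1.5.1) and deposited the raw count of each gene in each sample. How multi-gene reads and the strand were handled is not given in the sources used here. The table lists 48679 names, 92 of them spike-in controls with 0 counts, and columns not used numbered 0. Positions and exon lengths came from GENCODE vM21 on the same build, in which 46372 names matched. Protein sequences were not used here.

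Counts were analysed in R 4.3.3. In each comparison of 2 groups, low counts were removed by filterByExpr of edgeR 4.0.16, libraries were scaled by TMM factors (0.890 to 1.083) and the quasi-likelihood test was run. P-values were adjusted over all genes by the Benjamini-Hochberg method, with the threshold of 0.01 that the study used. DESeq2 1.42.0 was an alternative. Other alternatives were other scalings and filters, 1 fit of 9 pools, a replicate block, removal of GC content and length trends by R's lowess (span 0.3) and each pool left out in turn. Ratios were compared by exact permutation tests over pools. CPM values are from the TMM scaling of all 9 pools.

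The 10 genes, the gene lists and the tests were chosen with earlier results of these data known. Named beside the 10 genes are, from each list, up to 2 genes with the largest rise and 2 with the largest fall in RVO versus untreated eyes among those called, and the 5 genes most like Glul and Kcnj10. Aldoa was named as part of a ratio. Pax2 was named after its values were seen. The values of 3 genes that this rule would name are not reported here. Replicates differed by more than sampling noise (chi-square per degree of freedom 3.15 to 54.1). Pools of the same number did not deviate together (correlation of deviations -0.17 to 0.10), so the numbers were not taken as pairs. On simulated counts with 200 changed genes, the test found 64% of 2-fold and 85% of 4-fold changes for RVO versus untreated eyes (6 false calls), 87% and 97% for control versus untreated eyes (3) and 54% and 93% for RVO versus control eyes (3). The simulation changed far fewer genes than were called against untreated eyes and shifted no pool as a whole. Its rates therefore do not give the power or error of the calls above.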

Additional observations from a re-analysis of the deposited data

How the results depend on the processing

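Of the results on single genes over all alternatives, 360 kept their direction and their side of the threshold, 52 gained and 33 lost a call and 5 changed sign. With libraries scaled by size only, the log2 fold change of Apoe between control and untreated eyes was 0.0424. In that comparison 5 of the 10 genes and 5902 of 16066 genes in all were called higher. Between RVO and control eyes 892 genes in all were called. With GC content and length trends removed the log2 fold change was -0.0753 for Dkk3 in control and untreated eyes and -0.0306 for Rlbp1 in RVO and control eyes. In that setting 0 of the 10 genes and 3986 of 16380 genes in all were called higher in RVO than in untreated eyes. With 1 pool left out at a time, Rlbp1 ranged from -0.0021 to 0.10 in the comparison of RVO with control eyes, with -0.00036 when control replicate 2 was left out. At an adjusted p under 0.05, 8 of the 10 genes were called between RVO and untreated eyes, 7 of them lower, where 66.9% of all genes passed, and 7 between RVO and control eyes, all lower, with 5836 genes in all. Without a filter on low counts 5 of the 10 genes were lower in RVO eyes against control eyes, with 3309 genes in all, and by DESeq2's Wald test 6, with 3967 in all. In 1 fit of all 9 pools 3 were lower in RVO eyes against control eyes, with 3853 genes in all. In the same fit 3 were called between control and untreated eyes, 1 higher and 2 lower, where 37.4% of all genes were called. The cause of these changes was not tested. Leaving out 1 pool at a time, 1 to 10 of the 10 genes were called between RVO and untreated eyes (0 to 1 higher, 1 to 9 lower), with 6008 to 10491 genes in all. Between RVO and control eyes 0 to 9 were called (0 to 9 lower), with 0 to 6257 genes in all, 6257 of them without RVO replicate 2. With a replicate block, 5, 7 and 0 of the 10 genes were called in RVO versus untreated, control versus untreated and RVO versus control eyes. Of all genes 50.2% and 52.3% were called in the former 2. In the last comparison 0 genes in all were called (7227 at an unadjusted p under 0.05 with edgeR), against 563 without the block. The gene lists without RVO replicate 2 were counted as an alternative chosen after seeing the data. Untreated pools had the fewest counts, which limits genes of low expression, and n was 3 pools per group.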

Other observations

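Markers of other cells that share the 10 genes were also measured. Of 6 tested astrocyte markers 2 were called higher and 0 lower in RVO and in control eyes, and 0 of 6 were called between RVO and control eyes (edgeR, 1 higher at an adjusted p under 0.05), or 1 higher and 1 lower without RVO replicate 2. Their sum was 64.8 to 79.0 CPM in untreated, 104 to 149 CPM in control and 161 to 257 CPM in RVO pools. Aldh1l1, a folate enzyme of astrocytes, rose by 2.98 on the log2 scale in RVO (SE 0.13, edgeR's adjusted p = 2.68e-06) and by 2.39 in control eyes (SE 0.18, adjusted p = 3.68e-07). The connexin gene Gja1 rose by 1.31 in RVO eyes (SE 0.27, adjusted p = 0.0031) and had a log2 fold change of -0.13 in control eyes (adjusted p = 0.59). The defining transcription factor of retinal astrocytes, Pax2, which was named after its values were seen, was at 0.286 to 1.4 CPM over the 9 pools. In the pigment epithelium list, Rdh5 rose by 0.78 in RVO eyes (SE 0.15, adjusted p = 0.00212), whereas Rpe65 had -1.22 (SE 0.24, adjusted p = 0.0025) and Otx2, which photoreceptors and bipolar cells also use, -0.43 (SE 0.07, adjusted p = 0.000698).

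Microglia and macrophage markers moved in both directions, with 4 of 14 called higher and 3 lower in RVO eyes, 4 and 4 in control eyes, and 2 higher between RVO and control eyes. Without RVO replicate 2, 4 were higher and 6 lower against untreated eyes, and 3 higher and 8 lower against control eyes. Lyz2, lysozyme of macrophages, had 2.50 to 3.72 CPM in untreated, 20.8 to 30.4 CPM in control and 48.7 to 60.9 CPM in RVO pools, and Cd68, a lysosomal protein of phagocytes, 4.61 to 5.81 CPM, 10.3 to 15.01 CPM and 26.6 to 37.0 CPM. Tmem119, a marker of resident microglia, had 11.3 to 16.8 CPM, 3.44 to 3.89 CPM and 0.988 to 2.21 CPM, and P2ry12, the microglial ADP receptor, 14.3 to 26.4 CPM, 2.34 to 2.53 CPM and 0.542 to 1.27 CPM in the same order. Rod markers were lower, with 8 of 10 called lower and 1, Rom1, higher in RVO eyes, 6 lower and 1 higher in control eyes, and 2 lower between RVO and control eyes, or 4 lower without RVO replicate 2. Gnat1, the rod transducin alpha subunit, had a log2 fold change of -1.21 in RVO eyes (SE 0.08, edgeR's adjusted p = 1.31e-05), and the rod phosphodiesterase gene Pde6b one of -1.09 (SE 0.06, adjusted p = 9.21e-06).

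Of 14 bipolar, amacrine and ganglion cell markers 13 were called lower in RVO and 12 in control eyes, and 0 were called higher in either. Between RVO and control eyes 0 were called at 0.01 with edgeR and 13 were lower at an adjusted p under 0.05, and 14 were called lower without RVO replicate 2. The bipolar cell genes Vsx1 and Cabp5 had log2 fold changes of -2.50 (SE 0.51, adjusted p = 0.00269) and -2.16 (SE 0.31, adjusted p = 0.000471) in RVO eyes, and of -3.43 and -2.62 without RVO replicate 2. Lens markers were called higher for 7 of 10 tested genes in RVO and 11 of 11 in control eyes, and for 0 of 11 between RVO and control eyes (edgeR, 0 at an adjusted p under 0.05 as well). The lens crystallin Crygc was at 7.74, 323 and 40.8 CPM in the RVO pools and at 90.9, 33.2 and 7.99 CPM in the control pools, and Crybb2 rose by 7.88 on the log2 scale in RVO eyes (SE 1.53, adjusted p = 0.00217), or by 5.34 without RVO replicate 2.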
